A study of Homo sapiens with 42 samples.

Results

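The 6 libraries described here, of 42 in the series, compare cytoplasmic RNA of MDA-MB-231 cells after HNRNPC knockdown (gHNRNPC, 3 libraries) with cytoplasmic RNA of control cells (gCTRL, 3 libraries). They were picked out by their labels and not by a measured value, though with earlier results of these data known. MDA-MB-231 is a human triple-negative breast cancer cell line, and the cells of both groups carry the label poorly metastatic; both grew in high-glucose DMEM with 10% FBS and antibiotics. Each library was made with QuantSeq REV, a kit that reads from the 3′ end of polyadenylated RNA, so a count marks a transcript and also the site at which it was cleaved. The labels give neither the method of the knockdown, nor its guides or clones, nor the content of the control, and they do not say whether the replicates were separate cultures. The p-values below therefore measure the spread between these libraries, which may be technical. In bulk RNA of this kind, fewer cells of a type and less RNA per cell cannot be told apart. The nuclear libraries of the same knockdown (3 and 3) serve as a further comparison at the end.

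HNRNPC is an abundant nuclear protein that binds runs of uridine in newly made RNA as part of the core hnRNP particle. It is known to compete with the splicing factor U2AF at cryptic 3′ splice sites, many of them in Alu elements, and to affect which poly(A) site is used where uridine runs lie close by. The choice of poly(A) site sets where an mRNA ends: a proximal site gives a shorter transcript and a distal site a longer one, with more sequence for RNA-binding proteins and microRNAs. The comparison addresses which mRNAs differ in level, and which differ in the site where they end, in the cytoplasm of cells with less HNRNPC.

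The 6 libraries held 1.83 to 2.25 M counts in all, and the 3 libraries of either group differed more than counting allows. In gCTRL, replicate 2 stood apart from the other libraries. There the chi-square of gene counts per degree of freedom was 9.11 and 9.46 against the other gCTRL libraries, and 1.95 between those 2. In gHNRNPC the chi-square was largest between replicates 1 and 2, at 9.19. It was 4.44 between replicates 2 and 3 and 3.69 between replicates 1 and 3, so no single gHNRNPC library stood apart. No pair of libraries was a duplicate. Counts of calls are also given without both replicate 2 libraries, a choice made after seeing the data. Of 8 genes that mark MDA-MB-231 cells, 7 were present and TGFBI was at 0 in all 6 libraries. Of 7 luminal breast markers ESR1, PGR and FOXA1 were at 0 as well, and their sum was 8.14 to 16.9 CPM (counts of a gene scaled to a common library size) in gHNRNPC against 16.9 to 20.4 CPM in gCTRL libraries. Of 11 immune markers 5 were at 0, and their summed level was 17.9 to 23.5 CPM in gHNRNPC against 7.57 to 9.24 CPM in gCTRL libraries, most of it CD68, a lysosomal membrane protein that was called higher. Of 11 fibroblast and endothelial markers 9 were at 0, with sums of 2.04 to 4.28 CPM in gHNRNPC against 0 to 2.84 CPM in gCTRL libraries. Of 9 erythroid and keratinocyte markers 6 were at 0, and nearly all of the sum, 223 to 288 CPM in gHNRNPC against 123 to 212 CPM in gCTRL libraries, came from KRT10. Of 12 RNAs listed as kept in the nucleus 4 were at 0, and their sum was 494 to 566 CPM in gHNRNPC against 450 to 582 CPM in gCTRL cytoplasm, above the 298 to 397 CPM of the nuclear libraries. Most of it was NORAD, at 304 to 456 CPM over the 6 libraries. The sum thus mainly follows 1 RNA and does not gauge nuclear RNA in the cytoplasmic libraries. MALAT1 had 8.68, 6.64 and 3.85 CPM in gHNRNPC libraries, against 4.89, 6.49 and 4.74 CPM in gCTRL libraries. Its level in nuclei is not given here, so these values do not gauge nuclear RNA either. Mitochondrially encoded transcripts summed to 1258 to 2733 CPM in gHNRNPC against 543 to 1674 CPM in gCTRL cytoplasm. The part of these markers in the results below was not tested.

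HNRNPC (chromosome 14, 21209136–21269494 in GRCh38, GENCODE 29, which gives every gene position here) was measured first, as the target. It had 86.8, 113 and 99.8 CPM in gHNRNPC libraries, against 549, 490.3 and 496 CPM in gCTRL libraries. All 3 gHNRNPC libraries were far below all 3 gCTRL libraries. Levels averaged 99.9 ± 13.1 CPM in gHNRNPC and 512 ± 32.1 CPM in gCTRL cytoplasm (SD, n = 3 each, as for all means below), a log2 change of −2.36 ± 0.19, adjusted p = 2.3e-09 (± standard error, as after every log2 change; edgeR quasi-likelihood test, Benjamini-Hochberg over all genes tested, as for all adjusted p below).

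Expression was tested for 9351 genes, each the sum of its entries. Reads at an end without an entry are not counted, so a sum can fall short of the level of its gene. Genes rose and fell in nearly equal number: 1151 were called higher in gHNRNPC cytoplasm (12.3% of those tested) and 1163 lower (12.4%), 24.7% in all, where a call is an adjusted p under 0.05. The groups did not overlap in 40.5% of the genes tested and in 2197 of the 2314 called. Rises reached further than falls. A log2 change of at least 1 was seen in 720 of the genes called higher and 580 of those called lower, and one of at least 2 in 168 and 67. The direction went with abundance: below 5 CPM 123 genes were higher and 37 lower of 1391, and above 100 CPM 160 were higher and 341 lower of 1514. Of 177 antisense RNAs 35 were higher and 17 lower, of 206 long intergenic RNAs 35 and 15, and of 8521 protein-coding genes 1032 and 1095. The split of directions depends on scaling. With library totals in place of TMM (edgeR's trimmed mean scaling), the median log2 change over all genes moved to +0.15, from +0.01, and 1533 genes were called higher and 862 lower. Without replicate 2 of both groups 566 were called higher and 727 lower, and 1166 of the 2314 calls remained in the same direction. Without gHNRNPC replicate 2 alone, 671 were called higher.

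**Figure D1:**
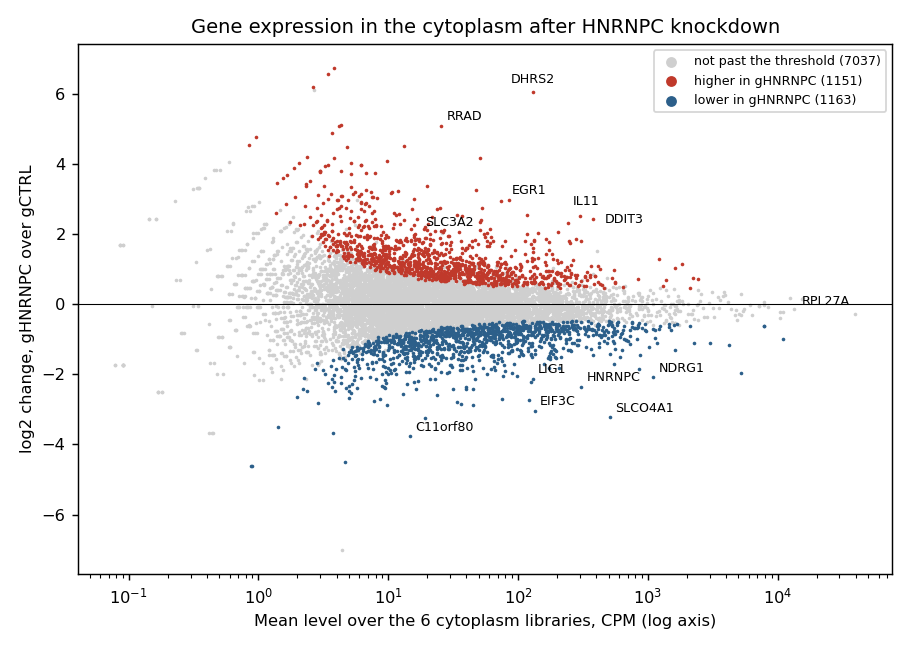
Log2 change of gHNRNPC over gCTRL cytoplasm (vertical axis) against the mean level over the 6 libraries in CPM (log axis), 1 point for each of 9351 genes tested. Red points were called higher (1151) and blue points lower (1163); the labelled genes are named in the text, with DHRS2 at a change of +6.05 and HNRNPC at −2.36.

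The 15 largest rises and 15 largest falls are named, among called genes with a mean of at least 20 CPM in 1 group. Their groups do not overlap, and under 50% of their reads lay in entries with a non-whole count in any library. The largest rise belonged to DHRS2, a short-chain dehydrogenase/reductase (chromosome 14, 23630115–23645639). It had 235, 332 and 202 CPM in gHNRNPC libraries, against 4.89, 4.32 and 2.37 CPM in gCTRL libraries. The groups lay far apart, with gCTRL at a few CPM in each library (log2 change +6.05 ± 0.32, adjusted p = 3.9e-13). RRAD, a Ras-related GTPase that restrains calcium channels (chromosome 16, 66921679–66925644), had 60.8, 42.9 and 45.4 CPM in gHNRNPC libraries, against 1.09, 2.70 and 0.474 CPM in gCTRL libraries (+5.09 ± 0.41, adjusted p = 5.4e-10). RND1, a small GTPase that loosens the actin cytoskeleton, had 19.5, 34.2 and 22.3 CPM in gHNRNPC libraries, against 1.63, 0 and 1.42 CPM in gCTRL libraries (+4.52 ± 0.51, adjusted p = 1.9e-07), with 0 in 1 gCTRL library. IP6K2, an inositol hexakisphosphate kinase, averaged 36.5 ± 9.63 CPM in gHNRNPC and 3.43 ± 1.14 CPM in gCTRL cytoplasm (+3.38 ± 0.36, adjusted p = 1.2e-07). DERL1, a membrane protein that helps to export misfolded proteins from the endoplasmic reticulum, averaged 21.5 ± 1.84 CPM in gHNRNPC and 2.24 ± 0.117 CPM in gCTRL cytoplasm (+3.23 ± 0.34, adjusted p = 1.4e-07). DHRS2, RRAD and RND1 were near 0 in gCTRL cytoplasm. Next in size came the carboxylesterase CES3 (28.1 against 3.52 CPM, +3.01 ± 0.37), the transcription factor EGR1 (131 against 17.01 CPM, +2.94 ± 0.33), the amino acid transporter chain SLC3A2 (92.8 against 13.6 CPM, +2.75 ± 0.25), the ubiquitin ligase TRIM8 (41.2 against 6.21 CPM, +2.71 ± 0.29), the membrane protein TMEM150A (20.7 against 3.41 CPM, +2.57 ± 0.49), the ribosomal protein gene RPL35A (202 against 34.7 CPM, +2.54 ± 0.26) and the circadian repressor PER1 (62.95 against 10.8 CPM, +2.53 ± 0.25); the values are the mean in gHNRNPC against that in gCTRL. The 15 were completed by 3 RNAs named without a known protein product: RPARP-AS1 (+2.74 ± 0.29), AC093323.1 (+2.72 ± 0.37) and AL645608.7 (+2.53 ± 0.30).

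Of the largest falls, C11orf80, a protein of meiotic DNA break formation (chromosome 11, 66744451–66843328), had 1.09, 1.53 and 3.00 CPM in gHNRNPC libraries, against 23.4, 30.8 and 27.97 CPM in gCTRL libraries (−3.76 ± 0.40, adjusted p = 1.2e-07). BPHL, a serine hydrolase, averaged 3.66 ± 1.55 CPM in gHNRNPC and 34.6 ± 5.66 CPM in gCTRL cytoplasm (−3.23 ± 0.36, adjusted p = 2.5e-07). SLCO4A1, an organic anion transporter of the plasma membrane (chromosome 20, 62642445–62685785), was the most abundant of these, with 97.1, 97.1 and 102 CPM in gHNRNPC libraries, against 816, 1068 and 889 CPM in gCTRL libraries. Its gHNRNPC libraries agreed closely, and all were far under the gCTRL ones (−3.23 ± 0.19, adjusted p = 2.6e-12). SLCO4A1-AS1, an antisense RNA within the SLCO4A1 gene, fell too, with 9.77, 12.3 and 10.3 CPM in gHNRNPC libraries, against 83.2, 78.4 and 74.9 CPM in gCTRL libraries (−2.86 ± 0.25, adjusted p = 5.0e-09). EIF3C, a core subunit of translation initiation factor 3, had 29.3, 26.6 and 31.7 CPM in gHNRNPC libraries, against 197, 297 and 226 CPM in gCTRL libraries (−3.03 ± 0.23, adjusted p = 5.4e-10); a near-identical copy, EIF3CL, lies close by, so the split of reads between them is uncertain. The other large falls were those of the deubiquitinase MINDY2 (8.81 against 63.8 CPM, −2.84 ± 0.26), the NADPH oxidase NOX5 (8.52 against 59.04 CPM, −2.79 ± 0.28), the tubulin folding cofactor TBCD (31.8 against 210.1 CPM, −2.73 ± 0.23), the small GTPase RAC3 (19.99 against 129 CPM, −2.69 ± 0.25), MPND (3.84 against 22.3 CPM, −2.55 ± 0.36), the ciliary protein CFAP410 (12.5 against 66.9 CPM, −2.42 ± 0.25), the Wnt receptor ligand NDP (5.08 against 27.4 CPM, −2.42 ± 0.32), the NAD synthetase NADSYN1 (9.73 against 53.5 CPM, −2.41 ± 0.29), the calpain protease subunit CAPN2 (14.4 against 76.3 CPM, −2.41 ± 0.27) and the centromere protein CENPI (13.1 against 66.8 CPM, −2.35 ± 0.26). The 5 most abundant genes without a call were ribosomal: RPL27A averaged 36108 ± 7406 CPM in gHNRNPC and 43550.3 ± 7759 CPM in gCTRL cytoplasm (−0.27 ± 0.23, adjusted p = 0.42), and RPS27A, RPLP0, RPS14 and RPS12 had log2 changes of +0.17 ± 0.22, +0.15 ± 0.21, −0.13 ± 0.20 and +0.18 ± 0.22. All reads of RPS27A, RPLP0 and RPS12 lay in entries with non-whole counts. Such counts can come from reads shared with other entries, to an extent that was not tested, so their values are uncertain.

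Lists of genes with a shared role were then read by their counts and their median, beside the 12.3% called higher, the 12.4% called lower and the median log2 change of +0.01 over all genes tested. Members of the lists were chosen with earlier results of these data known, so their shares of calls are descriptions only. Among lists with at least 8 tested members, the one with the largest share of calls held the regulators and effectors of the integrated stress response: 15 of 19 tested were higher and 0 lower, with a median of +1.18. In this response, kinases that sense stress slow general translation while ATF4 and its partners turn on genes of amino acid supply, redox defence and cell death. Of the tested members, 12 were called higher and 0 lower without replicate 2 of both groups. ATF4, the transcription factor at its centre, had 3092, 2428 and 2924 CPM in gHNRNPC libraries, against 1525, 1933 and 1532 CPM in gCTRL libraries. The lowest gHNRNPC library was above the highest gCTRL library (+0.76 ± 0.20, adjusted p = 0.0058). DDIT3, also called CHOP, a transcription factor of the C/EBP family linked to cell death, had 692, 598 and 641 CPM in gHNRNPC libraries, against 123, 132 and 105 CPM in gCTRL libraries. It changed more than ATF4 did, and its groups were far apart (+2.43 ± 0.21, adjusted p = 4.3e-09). ATF5, a relative of ATF4, had 549, 424 and 448 CPM in gHNRNPC libraries, against 125, 147 and 138 CPM in gCTRL libraries (+1.79 ± 0.19, adjusted p = 1.2e-07). CEBPB, which can pair with ATF4 and DDIT3, averaged 451 ± 6.71 CPM in gHNRNPC and 265 ± 14.5 CPM in gCTRL cytoplasm (+0.77 ± 0.16, adjusted p = 0.00086).

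Of the other members of this list, DDIT4, VEGFA, KLHL24 and VLDLR were not called. SESN2, a leucine sensor that restrains mTORC1, had 192, 191 and 194 CPM in gHNRNPC libraries, against 52.7, 59.5 and 63.5 CPM in gCTRL libraries (+1.71 ± 0.19, adjusted p = 2.7e-07). TRIB3, a pseudokinase that restrains AKT and ATF4, had 78.1, 93.5 and 96.4 CPM in gHNRNPC libraries, against 25.6, 20.5 and 29.9 CPM in gCTRL libraries (+1.81 ± 0.21, adjusted p = 4.9e-07). All gHNRNPC libraries of both genes were above all gCTRL libraries. CHAC1, which breaks down glutathione, averaged 38.3 ± 4.15 CPM in gHNRNPC and 14.6 ± 3.88 CPM in gCTRL cytoplasm (+1.39 ± 0.26, adjusted p = 0.00036). PPP1R15A, also called GADD34, which helps to reverse the block of translation, averaged 282 ± 32.8 CPM in gHNRNPC and 124 ± 34.8 CPM in gCTRL cytoplasm (+1.18 ± 0.19, adjusted p = 6.4e-05). The secreted stress cytokine GDF15 averaged 87.8 ± 4.58 CPM in gHNRNPC and 22.2 ± 5.06 CPM in gCTRL cytoplasm (+1.99 ± 0.23, adjusted p = 3.8e-07). ATF3, a stress-induced repressor, had 14.7, 13.8 and 15.8 CPM in gHNRNPC libraries, against 0, 0 and 2.84 CPM in gCTRL libraries (+3.75 ± 0.62, adjusted p = 6.4e-05), with 0 in 2 gCTRL libraries.

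Genes of amino acid supply were called higher more often than lower. Of 14 enzymes of amino acid synthesis and one-carbon metabolism 8 were higher and 0 lower (median +0.71), of 11 amino acid transporters 6 and 0 (+0.65), and of 17 cytosolic aminoacyl-tRNA synthetases 7 and 1 (+0.47). Without replicate 2 of both groups the counts were 4 and 0, 4 and 0, and 7 and 1. Leaving out 1 library gave 4 to 7 enzymes higher, and 3 to 5 synthetases. ASNS, asparagine synthetase, had 411, 354 and 402 CPM in gHNRNPC libraries, against 111, 123 and 113 CPM in gCTRL libraries (+1.74 ± 0.20, adjusted p = 3.3e-07). Almost all of its reads (99.9%) lay in entries with a non-whole count in at least 1 library. How many of these reads are shared with other entries was not tested, so the value of ASNS is uncertain. The mitochondrial one-carbon enzyme MTHFD2 had 62.4, 82.3 and 61.2 CPM in gHNRNPC libraries, against 29.4, 16.8 and 31.8 CPM in gCTRL libraries (+1.39 ± 0.27, adjusted p = 0.00043). SHMT2, which feeds it from serine, averaged 417 ± 49.6 CPM in gHNRNPC and 241 ± 46.9 CPM in gCTRL cytoplasm (+0.79 ± 0.18, adjusted p = 0.0018). The transporters include the heavy chain SLC3A2 and its light chain SLC7A5, which together exchange glutamine for leucine. SLC3A2 had 84.6, 109 and 84.8 CPM in gHNRNPC libraries, against 14.1, 8.65 and 18.01 CPM in gCTRL libraries, and SLC7A5 had 264, 195 and 168 CPM in gHNRNPC libraries, against 48.4, 69.7 and 57.4 CPM in gCTRL libraries (+1.83 ± 0.21, adjusted p = 4.9e-07). The glutamine transporter SLC1A5 had 317, 456 and 376 CPM in gHNRNPC libraries, against 121, 89.2 and 119 CPM in gCTRL libraries (+1.80 ± 0.22, adjusted p = 1.3e-06). No library of either group overlapped in these 3. Among the synthetases, threonyl-tRNA synthetase TARS averaged 265 ± 75.8 CPM in gHNRNPC and 97.8 ± 20.2 CPM in gCTRL cytoplasm (+1.44 ± 0.22, adjusted p = 2.3e-05) and tyrosyl-tRNA synthetase YARS 329 ± 33.8 CPM in gHNRNPC and 179 ± 44.7 CPM in gCTRL cytoplasm (+0.88 ± 0.21, adjusted p = 0.0033). Leucyl-tRNA synthetase LARS went the other way, with 26.6, 32.7 and 28.7 CPM in gHNRNPC libraries, against 61.4, 65.9 and 61.2 CPM in gCTRL libraries (−1.10 ± 0.23, adjusted p = 0.00086).

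**Figure D2:**
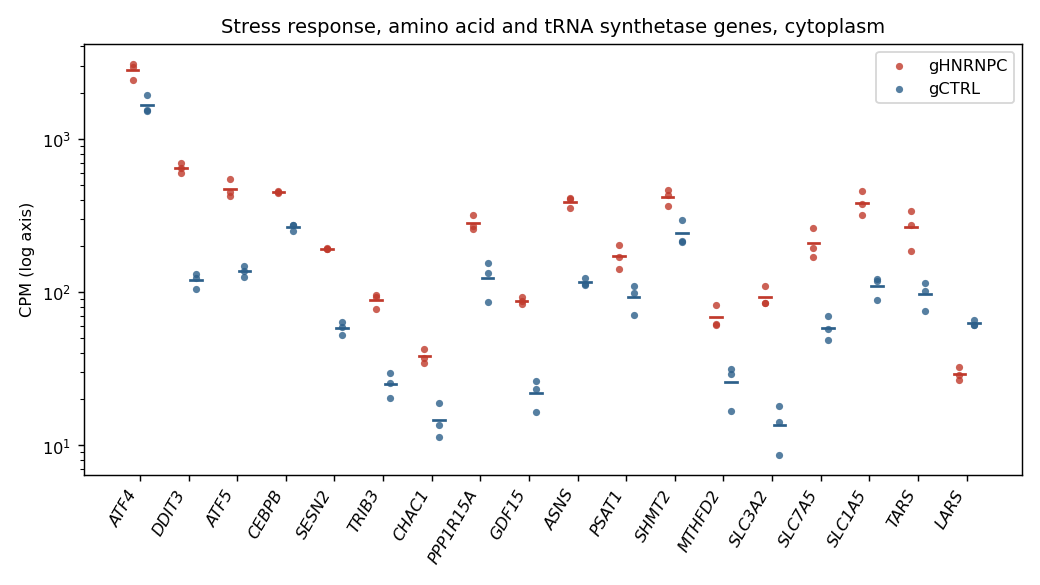
Level in CPM (log axis) of stress response, amino acid and tRNA synthetase genes in each cytoplasm library, gHNRNPC in red on the left and gCTRL in blue on the right of each gene; bars are the mean of 3 libraries. The gHNRNPC libraries lie above all gCTRL libraries in each gene shown except LARS, where they lie below.

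The motif TGATGNAA, the core shared by sites for ATF4 paired with a C/EBP factor, was searched on both strands in the 250 bases before each start in RefSeq promoters (GRCh38.p14). It was present in 870 of 27305 promoters (3.19%), in 3 of 31 matched members of the 4 lists above that were called higher (9.68%), and in 5 of 18 matched members that were not (27.8%). The 3 windows are shown because their genes rose and they hold the letters; capitals mark the match, which in CHAC1 lies on the opposite strand.
ATF3, chr1:212565176-212565263 (+): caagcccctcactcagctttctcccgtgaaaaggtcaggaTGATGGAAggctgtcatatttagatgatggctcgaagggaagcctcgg
CHAC1, chr15:40953222-40953309 (+): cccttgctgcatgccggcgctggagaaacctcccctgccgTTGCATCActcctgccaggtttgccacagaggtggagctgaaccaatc
ASNS, chr7:97872429-97872516 (−): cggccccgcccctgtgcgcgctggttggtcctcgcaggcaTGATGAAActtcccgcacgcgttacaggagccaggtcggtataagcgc
A match is a description of letters and not evidence of binding, and the members not called higher held it at the larger share.

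**Figure D3:**
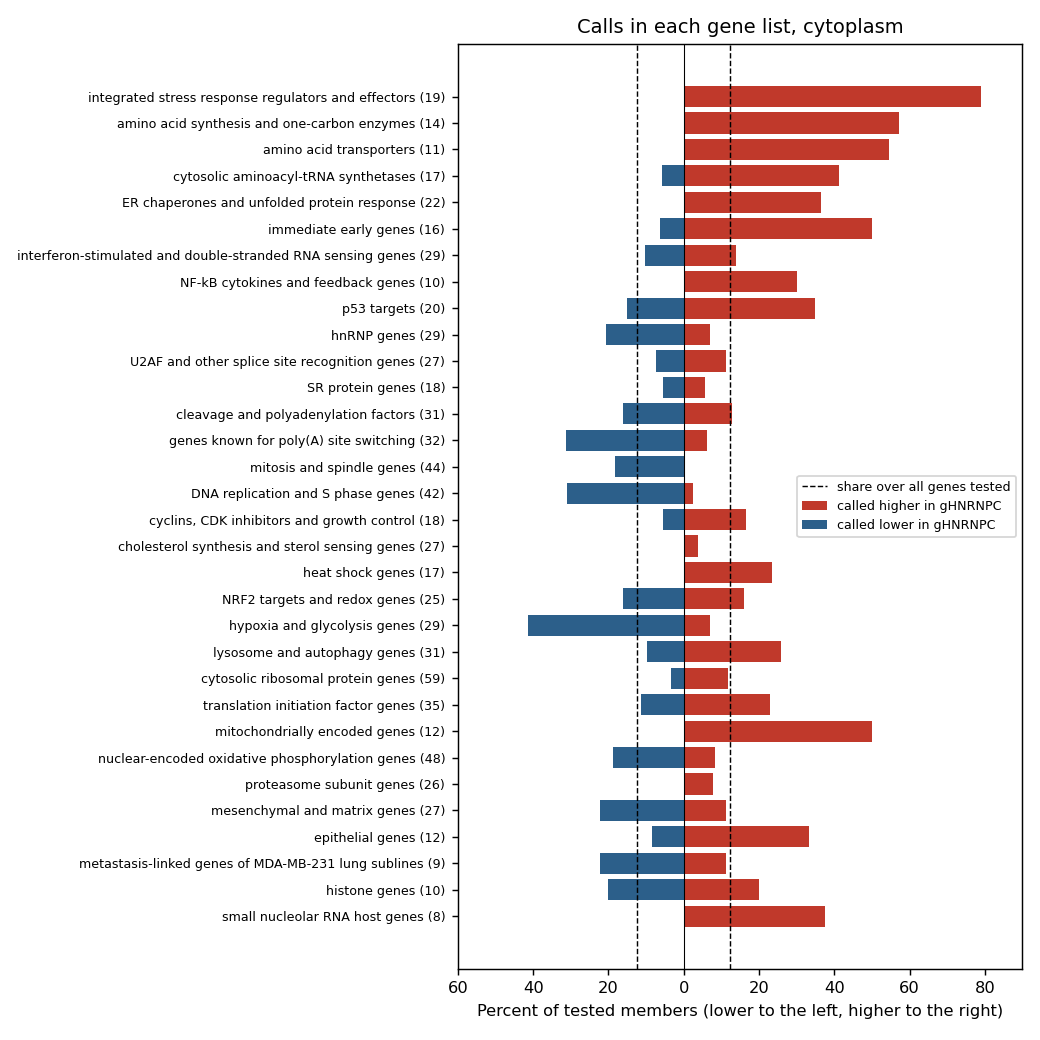
Share of each list's tested members (number in parentheses) called higher in gHNRNPC cytoplasm, to the right in red, and lower, to the left in blue; dashed lines mark the shares over all genes tested, 12.3% and 12.4%. The integrated stress response list reaches furthest to the right of the lists shown, those with at least 8 tested members, and the hypoxia and glycolysis list furthest to the left.

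Other stress lists leaned the same way. Of 22 genes of endoplasmic reticulum chaperones and the unfolded protein response 8 were higher and 0 lower (median +0.58); without replicate 2 of both groups, 4 were. XBP1, the transcription factor spliced by the sensor IRE1, had 60.8, 89.96 and 73.7 CPM in gHNRNPC libraries, against 35.3, 27.03 and 38.4 CPM in gCTRL libraries (+1.15 ± 0.23, adjusted p = 0.00047). ERN1, which encodes IRE1, had 50 reads over the gHNRNPC libraries and 3 over the gCTRL libraries, a ratio of 15.7 per library size with a counting interval (95%) of 5.07 to 78.7. The chaperone HSPA5, usually abundant, had 3.80, 3.58 and 1.28 CPM in gHNRNPC libraries, against 2.72, 2.16 and 1.90 CPM in gCTRL libraries, a level too low for a call (+0.30 ± 0.62, adjusted p = 0.76). Whether a main end of HSPA5 lacks an entry was not tested. Of 17 heat shock genes 4 were higher and 0 lower (+0.42). DNAJB4, a co-chaperone of HSP70, averaged 14.7 ± 1.77 CPM in gHNRNPC and 2.98 ± 2.41 CPM in gCTRL cytoplasm (+2.22 ± 0.43, adjusted p = 0.0004), and the HSP90 isoform HSP90AB1 3041 ± 108 CPM in gHNRNPC and 1859 ± 192 CPM in gCTRL cytoplasm (+0.71 ± 0.17, adjusted p = 0.0037). Of the 17, 9 were higher with library totals, and 2 were without replicate 2 of both groups.

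Of 16 immediate early genes, which cells switch on within minutes of a signal, 8 were called higher, 1 lower and 7 neither (median +0.70). EGR1 had 84.1, 202 and 107 CPM in gHNRNPC libraries, against 20.7, 11.9 and 18.5 CPM in gCTRL libraries, highest in gHNRNPC replicate 2 and separate from all gCTRL libraries. JUNB, an AP-1 subunit, had 263, 269.9 and 242 CPM in gHNRNPC libraries, against 88.1, 81.1 and 94.8 CPM in gCTRL libraries (+1.55 ± 0.18, adjusted p = 3.4e-07). IER2, the most abundant of the members called, had 2227, 2129 and 2186 CPM in gHNRNPC libraries, against 1053, 1035 and 1090.3 CPM in gCTRL libraries (+1.04 ± 0.17, adjusted p = 6.4e-05). Replicates agreed closely for both. FOSB, another AP-1 subunit, averaged 12.5 ± 1.08 CPM in gHNRNPC and 0.903 ± 0.826 CPM in gCTRL cytoplasm (+3.75 ± 0.53, adjusted p = 6.4e-06). The nuclear receptor NR4A1 had 40 reads over the gHNRNPC libraries and 2 over the gCTRL libraries, a ratio of 18.8 (4.89 to 161). DUSP6, a phosphatase that switches off ERK, was the exception, with 80.3, 67.98 and 80.1 CPM in gHNRNPC libraries, against 165, 176 and 155 CPM in gCTRL libraries (−1.12 ± 0.19, adjusted p = 7.5e-05).

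Among NF-kB cytokines and feedback genes 3 of 10 were higher and 0 lower (median +0.68). IL11, a cytokine of the IL-6 family (chromosome 19, 55364389–55370463), had 535, 527 and 465 CPM in gHNRNPC libraries, against 84.8, 101 and 82.01 CPM in gCTRL libraries. The groups lay far apart, and replicates of each were close (+2.51 ± 0.21, adjusted p = 2.6e-09). RELB, a subunit of the non-canonical pathway, averaged 128 ± 19.2 CPM in gHNRNPC and 75.8 ± 6.37 CPM in gCTRL cytoplasm (+0.76 ± 0.19, adjusted p = 0.0051). Of 20 p53 targets 7 were higher and 3 lower (+0.45), with 1 lower without gHNRNPC replicate 1, gHNRNPC replicate 3, gCTRL replicate 2 or both replicate 2 libraries; as background, MDA-MB-231 cells carry mutant p53. CDKN1A, the p21 inhibitor of cyclin-dependent kinases, had 257, 229 and 227 CPM in gHNRNPC libraries, against 84.8, 86.5 and 94.8 CPM in gCTRL libraries (+1.42 ± 0.17, adjusted p = 7.7e-07), and PHLDA3, an inhibitor of AKT, had 75.97, 48.05 and 66.4 CPM in gHNRNPC libraries, against 122, 152 and 117 CPM in gCTRL libraries (−1.04 ± 0.21, adjusted p = 0.00072). SESN2, GDF15, BBC3 and TNFRSF10B stand on both this list and the stress list. Of 29 interferon-stimulated and double-stranded RNA sensing genes 4 were higher and 3 lower (+0.11), a share like that of all genes; without gCTRL replicate 2, or both replicate 2 libraries, 1 was lower. The peptide transporter TAP1 averaged 24.5 ± 6.96 CPM in gHNRNPC and 5.49 ± 0.638 CPM in gCTRL cytoplasm (+2.15 ± 0.32, adjusted p = 2.1e-05), the immunoproteasome subunit PSMB8 75.9 ± 12.97 CPM in gHNRNPC and 33.2 ± 13.01 CPM in gCTRL cytoplasm (+1.18 ± 0.24, adjusted p = 0.0008) and the antiviral protein IFIT1 53.8 ± 17.4 CPM in gHNRNPC and 124 ± 26.1 CPM in gCTRL cytoplasm (−1.19 ± 0.24, adjusted p = 0.00051).

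RNA-binding proteins were read next, since HNRNPC is one of them. Of 29 hnRNP genes 2 were higher and 6 lower, HNRNPC itself included. PCBP2, which binds C-rich RNA, had 34.2, 52.6 and 26.98 CPM in gHNRNPC libraries, against 181, 115 and 176 CPM in gCTRL libraries. Its gHNRNPC libraries were all under the lowest gCTRL library (−2.06 ± 0.23, adjusted p = 3.2e-07). HNRNPK, its relative, averaged 37.9 ± 4.88 CPM in gHNRNPC and 68.7 ± 1.49 CPM in gCTRL cytoplasm (−0.85 ± 0.21, adjusted p = 0.0032) and HNRNPUL1 33.04 ± 2.63 CPM in gHNRNPC and 72.9 ± 5.25 CPM in gCTRL cytoplasm (−1.14 ± 0.22, adjusted p = 0.00042). HNRNPDL, an hnRNP D relative whose mRNA is known to be controlled by its own protein, had 573, 521 and 600.5 CPM in gHNRNPC libraries, against 268, 268 and 269 CPM in gCTRL libraries (+1.08 ± 0.18, adjusted p = 9.0e-05), and HNRNPU averaged 75.1 ± 5.25 CPM in gHNRNPC and 40.8 ± 4.65 CPM in gCTRL cytoplasm (+0.87 ± 0.20, adjusted p = 0.0023). Of 27 genes of U2AF and other splice site recognition 3 were higher and 2 lower. SF3B3, a subunit of the SF3b complex of U2 snRNP, had 79.2, 87.9 and 83.5 CPM in gHNRNPC libraries, against 20.7, 15.1 and 21.8 CPM in gCTRL libraries (+2.11 ± 0.29, adjusted p = 5.9e-06). U2AF1, the small subunit of U2AF, had 309, 939 and 541 CPM in gHNRNPC libraries, against 278, 98.4 and 251 CPM in gCTRL libraries and was not called (+1.51 ± 0.51, adjusted p = 0.059), with replicate 2 highest in gHNRNPC and lowest in gCTRL. It was called higher with DESeq2 (+1.47, adjusted p = 0.022) and with edgeR without gHNRNPC replicate 1 (+1.82, adjusted p = 0.019). All its reads lay in entries with non-whole counts. Of 18 SR protein genes 1 was higher and 1 lower.

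Of 31 cleavage and polyadenylation factors 4 were higher and 5 lower, against 2 and 2 without replicate 2 of both groups and 1 and 3 without gHNRNPC replicate 3. CSTF3 encodes CstF77, a subunit of the CstF complex, and this complex binds downstream of the cleavage site. CSTF3 had 37.4, 48.05 and 53.5 CPM in gHNRNPC libraries, against 12.5, 4.86 and 18.5 CPM in gCTRL libraries (+1.93 ± 0.30, adjusted p = 3.1e-05). SSU72, a phosphatase of the RNA polymerase II tail that works with the cleavage complex, averaged 5.61 ± 1.80 CPM in gHNRNPC and 16.3 ± 1.63 CPM in gCTRL cytoplasm (−1.54 ± 0.34, adjusted p = 0.0014). The export adaptor ALYREF averaged 286 ± 85.5 CPM in gHNRNPC and 517 ± 83.5 CPM in gCTRL cytoplasm (−0.86 ± 0.22, adjusted p = 0.006); without replicate 2 of both groups it was no longer called (−0.54, adjusted p = 0.13). Of 32 genes known for poly(A) site switching in other systems 2 were higher and 10 lower, against 0 and 7 without those libraries. HMGA2, a chromatin protein with a long 3′ UTR, had 2.17, 2.56 and 3.43 CPM in gHNRNPC libraries, against 13.05, 9.19 and 13.3 CPM in gCTRL libraries (−2.07 ± 0.42, adjusted p = 0.00071).

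Of 42 genes of DNA replication tested 1 was called higher, 13 lower and 28 neither (median −0.30), and without replicate 2 of both groups 1 and 9. LIG1, the ligase that joins Okazaki fragments, had 55.9, 42.9 and 46.7 CPM in gHNRNPC libraries, against 188, 245 and 201 CPM in gCTRL libraries. Every gHNRNPC library was far under the lowest gCTRL library (−2.12 ± 0.22, adjusted p = 7.8e-08). UHRF1, which carries DNA methylation through replication, had 40.7, 38.3 and 32.98 CPM in gHNRNPC libraries, against 118, 111 and 114 CPM in gCTRL libraries (−1.62 ± 0.19, adjusted p = 5.0e-07). Of the replicative helicase, MCM5 averaged 34.3 ± 9.02 CPM in gHNRNPC and 94.3 ± 8.86 CPM in gCTRL cytoplasm (−1.46 ± 0.22, adjusted p = 2.8e-05) and MCM3 53.3 ± 2.52 CPM in gHNRNPC and 116.4 ± 8.13 CPM in gCTRL cytoplasm (−1.13 ± 0.19, adjusted p = 0.00011). GINS1, a part of the active helicase, averaged 12.9 ± 2.37 CPM in gHNRNPC and 34.4 ± 4.52 CPM in gCTRL cytoplasm (−1.41 ± 0.27, adjusted p = 0.00037). Of 44 mitosis and spindle genes 0 were higher and 8 lower (−0.30). Centromere protein CENPI had 14.7, 11.2 and 13.3 CPM in gHNRNPC libraries, against 55.5, 80.001 and 64.9 CPM in gCTRL libraries, and SPC24, of the kinetochore's Ndc80 complex, had 32.01, 33.2 and 32.6 CPM in gHNRNPC libraries, against 86.999, 95.7 and 88.2 CPM in gCTRL libraries (−1.47 ± 0.20, adjusted p = 4.5e-06; 17.8% of its reads in non-whole entries). AURKB, the Aurora B kinase, averaged 593 ± 41.98 CPM in gHNRNPC and 924 ± 36.7 CPM in gCTRL cytoplasm (−0.64 ± 0.17, adjusted p = 0.0066). Of 18 cyclins, CDK inhibitors and growth control genes 3 were higher, CDKN1A among them, and 1 lower, against 1 and 0 without replicate 2 of both groups. Of 10 histone genes 2 were higher and 2 lower. The H2A variant gene H2AFJ averaged 19.4 ± 2.73 CPM in gHNRNPC and 2.08 ± 0.157 CPM in gCTRL cytoplasm (+3.19 ± 0.41, adjusted p = 2.8e-06) and HIST1H4C, a histone H4 gene, 1906 ± 332 CPM in gHNRNPC and 4096 ± 229 CPM in gCTRL cytoplasm (−1.10 ± 0.20, adjusted p = 0.0002).

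Genes of glycolysis and the response to low oxygen had the largest share of lower calls among lists with at least 8 tested members: of 29 tested 2 were higher and 12 lower (median −0.47), and without replicate 2 of both groups 1 and 12. GPI, which turns glucose 6-phosphate into fructose 6-phosphate, had 27.1, 37.8 and 24.8 CPM in gHNRNPC libraries, against 119.6, 115 and 136 CPM in gCTRL libraries (−2.05 ± 0.21, adjusted p = 1.1e-07). PFKL, the liver type of phosphofructokinase, had 102.6, 101 and 99.4 CPM in gHNRNPC libraries, against 277, 358 and 246 CPM in gCTRL libraries (−1.54 ± 0.20, adjusted p = 3.1e-06). LDHA, which makes lactate, had 114, 67.98 and 83.9 CPM in gHNRNPC libraries, against 255, 314 and 221 CPM in gCTRL libraries (−1.57 ± 0.24, adjusted p = 2.3e-05). The groups were separate for all 3 enzymes. PGK1, a later step, averaged 13.1 ± 2.42 CPM in gHNRNPC and 36.8 ± 12.7 CPM in gCTRL cytoplasm (−1.49 ± 0.29, adjusted p = 0.00045), and PDK1, the kinase that shuts pyruvate out of the citric acid cycle, 4.06 ± 2.62 CPM in gHNRNPC and 14.2 ± 6.42 CPM in gCTRL cytoplasm (−1.75 ± 0.43, adjusted p = 0.0035). NDRG1, a hypoxia marker and the most abundant member called, had 295, 509 and 451 CPM in gHNRNPC libraries, against 2065, 1253 and 2019 CPM in gCTRL libraries. Its gHNRNPC libraries were all under the lowest gCTRL library, which was replicate 2 (−2.09 ± 0.22, adjusted p = 1.2e-07). TPI1, of the middle of the pathway, went the other way, with 238, 251 and 222 CPM in gHNRNPC libraries, against 144, 139 and 144 CPM in gCTRL libraries (+0.73 ± 0.16, adjusted p = 0.0017).

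Of 25 NRF2 targets and redox genes 4 were higher and 4 lower (median +0.19). Members called lower included 3 enzymes of the pentose phosphate pathway. PGD averaged 8.40 ± 0.933 CPM in gHNRNPC and 28.8 ± 3.15 CPM in gCTRL cytoplasm (−1.75 ± 0.30, adjusted p = 0.00013), TALDO1 266 ± 30.5 CPM in gHNRNPC and 488 ± 11.3 CPM in gCTRL cytoplasm (−0.87 ± 0.17, adjusted p = 0.00046) and TKT 369.6 ± 78.01 CPM in gHNRNPC and 697 ± 120.5 CPM in gCTRL cytoplasm (−0.92 ± 0.21, adjusted p = 0.0021); TKT was not called without replicate 2 of both groups (−0.65, adjusted p = 0.06). The iron store FTL had 2503, 2467 and 2659 CPM in gHNRNPC libraries, against 1229.9, 1111 and 1122 CPM in gCTRL libraries (+1.14 ± 0.17, adjusted p = 1.6e-05). Of 48 nuclear-encoded genes of oxidative phosphorylation 4 were higher and 9 lower. Without replicate 2 of both groups the counts were 2 and 2 for the NRF2 list, and 2 and 7 for oxidative phosphorylation, which had 2 and 5 without gHNRNPC replicate 3. NDUFA13, a complex I subunit, had 282, 237 and 238 CPM in gHNRNPC libraries, against 583, 556 and 615 CPM in gCTRL libraries (−1.21 ± 0.17, adjusted p = 6.9e-06), and ATP5F1A, the alpha subunit of ATP synthase, averaged 102 ± 2.06 CPM in gHNRNPC and 199 ± 11.9 CPM in gCTRL cytoplasm (−0.97 ± 0.17, adjusted p = 0.00015). Of 12 mitochondrially encoded genes 6 were higher and 0 lower, but replicates of both groups were uneven. MT-ND1, a complex I subunit, had 130.2, 146 and 57.8 CPM in gHNRNPC libraries, against 22.3, 59.5 and 62.6 CPM in gCTRL libraries (+1.19 ± 0.33, adjusted p = 0.012). Its groups overlapped, and without gHNRNPC replicate 2 it was no longer called (+0.90, adjusted p = 0.087); without replicate 2 of both groups 1 of the 12 was higher. Nuclear libraries held 76359 to 116882 CPM of these RNAs.

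Of 31 lysosome and autophagy genes 8 were higher and 3 lower (median +0.22), against 4 and 3 without replicate 2 of both groups and 3 to 6 and 3 to 5 without 1 library. Log2 changes in this list ran from −1.58 to +1.66, and most of its members called higher are not named here. CTSD, the protease cathepsin D, had 672, 622 and 549 CPM in gHNRNPC libraries, against 1239.7, 1679 and 1409.8 CPM in gCTRL libraries (−1.23 ± 0.20, adjusted p = 6.0e-05), and BECN1, which starts autophagosomes, averaged 68.2 ± 16.2 CPM in gHNRNPC and 139.7 ± 17.3 CPM in gCTRL cytoplasm (−1.03 ± 0.19, adjusted p = 0.00034). Granulin precursor GRN averaged 30.3 ± 3.96 CPM in gHNRNPC and 16.7 ± 0.133 CPM in gCTRL cytoplasm (+0.85 ± 0.24, adjusted p = 0.0099). Of 27 cholesterol synthesis and sterol sensing genes 1 was higher and 0 lower, and of 26 proteasome subunit genes 2 and 0; without replicate 2 of both groups neither list held a call.

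Most genes of the translation machinery were not called, with a few large exceptions. Of 59 cytosolic ribosomal protein genes 7 were higher and 2 lower (median +0.08). RPL35A had 176, 230.0 and 199 CPM in gHNRNPC libraries, against 48.4, 16.2 and 39.3 CPM in gCTRL libraries (+2.54 ± 0.26, adjusted p = 9.2e-08). RPL14 had 205, 193 and 194 CPM in gHNRNPC libraries, against 68.5, 61.6 and 64.9 CPM in gCTRL libraries (+1.60 ± 0.20, adjusted p = 1.7e-06) and RPL32 28.8, 60.8 and 42.4 CPM in gHNRNPC libraries, against 9.24, 7.03 and 13.7 CPM in gCTRL libraries (+2.11 ± 0.29, adjusted p = 6.7e-06). Ribosomal protein genes have many near-identical pseudogenes, so single values are uncertain. Of 35 translation initiation factor genes 8 were higher and 4 lower (+0.08), against 2 and 4 without replicate 2 of both groups and 3 to 6 and 3 to 4 without 1 library. Log2 changes in this list ran from −3.03 to +2.98, and its members called higher are not named here. Besides EIF3C, the eIF2 gamma subunit gene EIF2S3 fell, with 26.6, 29.6 and 28.7 CPM in gHNRNPC libraries, against 92.4, 115 and 105 CPM in gCTRL libraries (−1.88 ± 0.21, adjusted p = 2.4e-07). Of 8 small nucleolar RNA host genes 3 were higher and 0 lower (+0.94). EPB41L4A-AS1, which carries a small nucleolar RNA in an intron, had 446, 424 and 451 CPM in gHNRNPC libraries, against 123, 129 and 114 CPM in gCTRL libraries (+1.85 ± 0.19, adjusted p = 7.2e-08). SNHG15 averaged 56.2 ± 18.8 CPM in gHNRNPC and 13.5 ± 1.42 CPM in gCTRL cytoplasm (+2.04 ± 0.27, adjusted p = 4.5e-06). ZFAS1 had 57 reads over the gHNRNPC libraries and 2 over the gCTRL libraries, a ratio of 26.8 (7.10 to 227). Of 5 RNAs listed as kept in the nucleus that could be tested 0 were higher and 1 lower.

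Genes tied to cell identity and spread changed in both directions. Of 27 mesenchymal and matrix genes 3 were higher and 6 lower. CAV1, the coat protein of caveolae, had 217, 219 and 169 CPM in gHNRNPC libraries, against 445, 479 and 483 CPM in gCTRL libraries (−1.22 ± 0.17, adjusted p = 6.8e-06). Fibronectin, FN1, had 33.6, 39.4 and 40.7 CPM in gHNRNPC libraries, against 94.6, 111 and 105 CPM in gCTRL libraries (−1.45 ± 0.23, adjusted p = 4.3e-05), and the integrin ITGB4 averaged 28.9 ± 1.30 CPM in gHNRNPC and 71.2 ± 11.1 CPM in gCTRL cytoplasm (−1.30 ± 0.22, adjusted p = 8.6e-05). All gHNRNPC libraries of these 3 were under all gCTRL libraries. Of 12 epithelial genes 4 were higher and 1 lower. The hair-type keratin KRT81 had 2096, 1500.2 and 1643 CPM in gHNRNPC libraries, against 662, 832 and 635 CPM in gCTRL libraries (+1.30 ± 0.20, adjusted p = 2.3e-05) and KRT7 averaged 500.4 ± 52.5 CPM in gHNRNPC and 289 ± 45.3 CPM in gCTRL cytoplasm (+0.79 ± 0.18, adjusted p = 0.002). Of 9 genes tested that earlier work linked to lung metastasis of MDA-MB-231 sublines 1 was higher and 2 lower. ANGPTL4, which loosens the contacts of endothelial cells, averaged 14.2 ± 1.31 CPM in gHNRNPC and 4.53 ± 3.66 CPM in gCTRL cytoplasm (+1.65 ± 0.38, adjusted p = 0.0022), FSCN1, which bundles actin, 59.9 ± 9.24 CPM in gHNRNPC and 149 ± 30.3 CPM in gCTRL cytoplasm (−1.31 ± 0.22, adjusted p = 7.3e-05), and the collagen COL6A1 4.93 ± 1.48 CPM in gHNRNPC and 16.1 ± 2.93 CPM in gCTRL cytoplasm (−1.70 ± 0.32, adjusted p = 0.00031). Of the 7 tested MDA-MB-231 markers 0 were higher and 3 lower, CAV1 among them. Without gHNRNPC replicate 1 the counts were 1 and 1, and without gHNRNPC replicate 3, gCTRL replicate 2 or both replicate 2 libraries 0 and 1. Of 2 tested luminal markers 0 were called, and the tested immune and keratinocyte markers with a call were CD68 and KRT10.

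Site use was measured in genes with at least 2 sites, by setting reads at the distal of the 2 most used sites against those at the proximal one (a log2 shift), so that the level of the gene cancels. Of 899 genes tested, 98 shifted toward the distal site in gHNRNPC cytoplasm (10.9%) and 29 toward the proximal site (3.23%), 14.1% in all. The shift was above 0 in 69.6% of the genes, with a median of +0.37. The median share of distal reads over genes was 51.4, 57.5 and 54.2% in gHNRNPC libraries, against 48.6, 45.3 and 48.8% in gCTRL libraries. The groups did not overlap, and replicate 2 was the highest of gHNRNPC and the lowest of gCTRL. Groups also did not overlap in 34.5% of all genes tested and in 125 of the 127 called. Of the 98 distal calls 63 had their highest value in gHNRNPC replicate 2 and 57 their lowest in gCTRL replicate 2. Without those 2 libraries 40 genes were called toward the distal and 14 toward the proximal site, and 53 of the 127 calls remained. In 74 of the 98 distal calls the distal site was higher and the proximal site lower in gHNRNPC in mean CPM, and in 26 the more used site was another one. Among the 29 proximal calls the same held the other way round in 24, and the more used site changed in 7. Expression was called higher in 10 of the 127 genes and lower in 30, and not called in 87, against 93, 164 and 642 of all 899 genes tested. With both sites at transcript ends 20 genes of 224 shifted distally and 5 proximally, with both at positions 6 and 5 of 111, and with 1 of each 72 and 19 of 564. Only 9.66% of the position entries lay inside the gene span of GENCODE 29. Their numbers were therefore not set directly against transcript ends, and no coordinates of positions are given. Between 2 positions the order follows their numbers. Between a transcript end and a position listed under it, the end was taken as distal from the layout of the table, where 98.4% of the groups of positions under 1 end are in falling order along the strand. That layout was checked on neighbouring genes of opposite strands, where any shift between the numberings cancels. The combined offset of the 2 positions of a pair from their ends pointed upstream in 94.3% of 3833 neighbouring pairs. Among the genes tested for site use it did in 53 of 54. Pairs with a combined offset above 20000 bases were left out, and 1 position of a pair could still lie downstream. The order in any single gene with 1 site of each kind was not checked.

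Ends of annotated transcripts are shown for 3 genes that shifted distally, NUP214, MRPL11 and HNRNPA1, and for 2 that shifted proximally, PRMT2 and OAZ2. Each is the last 30 bases on the transcript strand, in GRCh38 with GENCODE 29 ends, and capitals mark AATAAA or ATTAAA, the hexamer read by the cleavage complex, where present. The genes were picked after their values were seen, among those with both sites at transcript ends.
NUP214 distal end, chr9:131234634-131234663 (+): tgttttAATAAAagtttgacatgacattaa
NUP214 proximal end, chr9:131233678-131233707 (+): cactATTAAAcagtctgtttccgtacagaa
MRPL11 distal end, chr11:66435080-66435109 (−): aagaaAATAAAaacctcatgttatcccacc
MRPL11 proximal end, chr11:66435834-66435863 (−): caggcctgAATAAAcatcctttcttaccca
HNRNPA1 distal end, chr12:54287058-54287087 (+): ttttttttttAATAAActgtatttaactta
HNRNPA1 proximal end, chr12:54284852-54284881 (+): cgtgacgctgAATAAAtgtcttttttttaa
PRMT2 distal end, chr21:46664922-46664951 (+): cAATAAAtatttttaaatgagtgaatgtca
PRMT2 proximal end, chr21:46661241-46661270 (+): tcaaaatcaAATAAAttatatttcgtttca
OAZ2 distal end, chr15:64687576-64687605 (−): ttactgtgtcAATAAActgatttaaagttg
OAZ2 proximal end, chr15:64688485-64688514 (−): ttattcacatgtaatcaccaatagtaaatg
All ends shown here hold a hexamer within these 30 bases except the proximal end of OAZ2. Ends were read only where the transcript stood in GENCODE 29 in the same version, so many distal transcript ends are missing here. Within the last 50 bases a hexamer was present in 79.9% of the 487 distal ends read. The share was 77.8% in the 54 of these that belong to genes called distal. A hexamer was present in 26.8% of 224 proximal ends, in 8 of 20 of genes called distal, and in 4 of 5 of genes called proximal. A run of 5 T (TTTTT), the DNA form of a uridine run, stood in the last 100 bases of 36.6% of distal ends and 37.0% of those of genes called distal, and in 18.8% of proximal ends, 5 of 20 of those called distal and 2 of 5 of those called proximal.

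NUP214, a nucleoporin on the cytoplasmic face of the nuclear pore, had the largest shift toward the distal site. The distal share was 90.4, 91.2 and 86.2% in gHNRNPC libraries, against 36.7, 12.5 and 36.7% in gCTRL libraries. All gHNRNPC libraries had most reads at the distal end and all gCTRL libraries most at the proximal end, 956 bases apart (+4.29 ± 0.55, adjusted p = 3.1e-05); its distal site had 31.6 ± 5.92 CPM in gHNRNPC and 7.01 ± 3.78 CPM in gCTRL cytoplasm, and its proximal site 3.81 ± 1.23 CPM in gHNRNPC and 16.8 ± 2.11 CPM in gCTRL cytoplasm. SPECC1L, which links actin and microtubules, had a distal share of 54.9, 76.1 and 60.9% in gHNRNPC libraries, against 13.9, 5.61 and 8.91% in gCTRL libraries (+4.15 ± 0.46, adjusted p = 4.8e-06). BIRC5, the apoptosis inhibitor survivin, had 42.1, 48.8 and 43.3% in gHNRNPC libraries, against 5.97, 7.01 and 7.85% in gCTRL libraries (+3.44 ± 0.35, adjusted p = 1.9e-06). The main site of both was proximal in every gCTRL library. The summed level of BIRC5 was called lower (−0.69 ± 0.18), but with transcript entries alone, without its proximal position entry, it was higher (+1.92, adjusted p = 3.4e-06). MRPL11, a mitochondrial ribosomal protein, kept the proximal end as its main site, with 3.76, 6.33 and 5.38% in gHNRNPC libraries, against 0.883, 1.00 and 0.496% in gCTRL libraries at the distal one (+2.70 ± 0.51, adjusted p = 0.00097). The RNA-binding protein gene HDLBP had 61, 82.4 and 69.7% in gHNRNPC libraries, against 37.3, 20.4 and 41.03% in gCTRL libraries (+2.41 ± 0.40, adjusted p = 0.00054), highest in gHNRNPC replicate 2 and lowest in gCTRL replicate 2. TMEM8A (46.5 against 10.1%, +3.04 ± 0.55), the deacetylase AMDHD2 (90.9 against 61.7%, +2.61 ± 0.38), the haem transporter SLC48A1 (60.9 against 24.8%, +2.36 ± 0.51) and the kinesin KIF1C (62.7 against 25.5%, +2.35 ± 0.43) followed; the values are the mean distal share in gHNRNPC against gCTRL and the log2 shift. SLC35C2 (11.4 against 1.78%, +2.59 ± 0.73), also among the 10, was not called without gHNRNPC replicate 2 (+2.20, adjusted p = 0.095), gCTRL replicate 1 (+2.47, adjusted p = 0.068) or gCTRL replicate 3 (+2.06, adjusted p = 0.07).

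**Figure D4:**
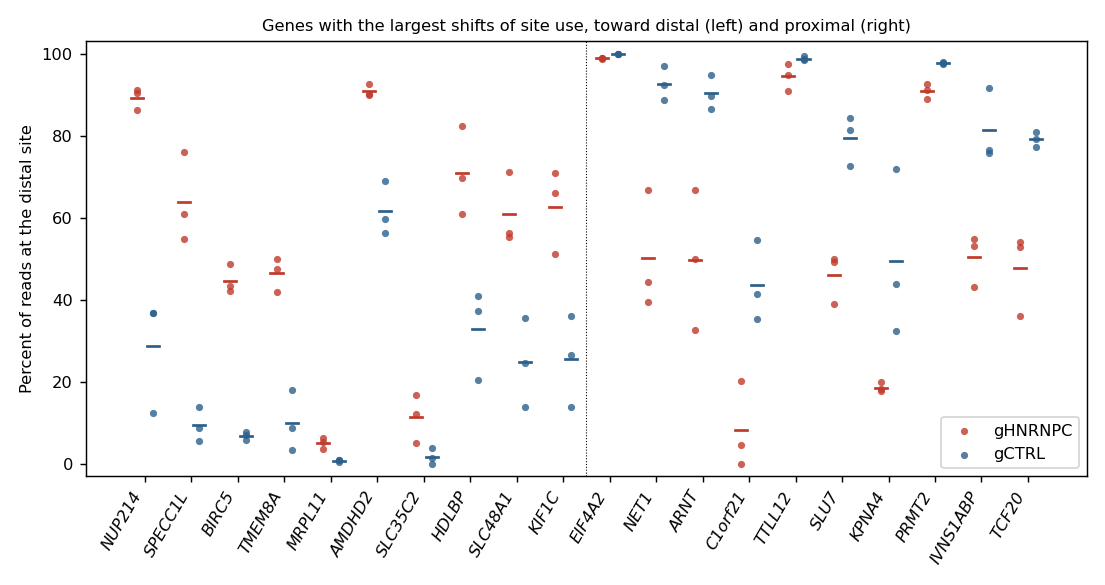
Percent of a gene's reads at its distal site in each cytoplasm library, for the 10 genes with the largest called shift toward the distal site (left of the dotted line) and the 10 toward the proximal site (right); gHNRNPC libraries are red and on the left of each gene, gCTRL libraries blue, and bars are means of 3. NUP214 separates the groups most widely on the left, with 86.2 to 91.2% against 12.5 to 36.7%.

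Shifts toward the proximal site were fewer. EIF4A2, an RNA helicase of translation initiation, had 20 proximal and 1667 distal reads over the gHNRNPC libraries, against 0 proximal and 1192 distal reads over the gCTRL libraries. Its ratio of distal to proximal reads was at least 4.77-fold lower in gHNRNPC, with 3 reads over the group as the floor for a count of 0. NET1, an exchange factor for RhoA, had a distal share of 66.7, 39.6 and 44.3% in gHNRNPC libraries, against 88.6, 97.1 and 92.4% in gCTRL libraries (−3.74 ± 0.58, adjusted p = 0.00031). ARNT, the partner of the hypoxia factors, had 66.7, 32.7 and 50% in gHNRNPC libraries, against 86.5, 94.9 and 89.6% in gCTRL libraries (−3.30 ± 0.58, adjusted p = 0.00068). Mean distal CPM was lower in gHNRNPC for both genes, and the summed level of each was called lower. The splicing factor SLU7 had 49.3, 50 and 39.1% in gHNRNPC libraries, against 81.5, 84.3 and 72.6% in gCTRL libraries (−2.16 ± 0.39, adjusted p = 0.00087), with no change called in its level. The arginine methyltransferase PRMT2 had 92.6, 91.05 and 89.01% in gHNRNPC libraries, against 97.6, 97.7 and 98.01% in gCTRL libraries (−2.12 ± 0.39, adjusted p = 0.00087), between ends 3681 bases apart. OAZ2, an inhibitor of polyamine synthesis whose ends are shown above, had 48.5, 37.4 and 44.4% in gHNRNPC libraries, against 67.9, 75.1 and 67.9% in gCTRL libraries (−1.63 ± 0.28, adjusted p = 0.00058), with all gHNRNPC libraries below all gCTRL libraries. TCF20, a transcriptional coactivator, had 36.2, 52.9 and 54.1% in gHNRNPC libraries, against 77.3, 79.2 and 80.95% in gCTRL libraries (−2.04 ± 0.47, adjusted p = 0.0065). The other 4 of the 10 lost their call when 1 library, or for IVNS1ABP both replicate 2 libraries, were left out. C1orf21 (−2.57 ± 0.63) was not called without gHNRNPC replicate 3 (−2.02, adjusted p = 0.052). TTLL12 (−2.17 ± 0.60) was not called without gHNRNPC replicate 2 (−1.66, adjusted p = 0.12), gHNRNPC replicate 3 (−2.20, adjusted p = 0.058) or gCTRL replicate 1 (−1.85, adjusted p = 0.076). The importin KPNA4 (−2.14 ± 0.55) was not called without gHNRNPC replicate 3 (−2.09, adjusted p = 0.053) or gCTRL replicate 2 (−1.45, adjusted p = 0.1), and IVNS1ABP (−2.08 ± 0.50) was not called without replicate 2 of both groups (−1.44, adjusted p = 0.14).

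Some members of the lists above were called for site use. Their counts stand beside the 10.9% distal and 3.23% proximal calls over all genes tested, and with so few members tested none was read as particular to a list. Of 12 hnRNP genes 2 shifted distally: HNRNPA1, a core hnRNP and splicing regulator, had a distal share of 5.83, 6.24 and 5.96% in gHNRNPC libraries, against 0.916, 2.19 and 1.89% in gCTRL libraries (+1.94 ± 0.45, adjusted p = 0.0064), and HNRNPAB 74.6 ± 7.39% in gHNRNPC and 46.99 ± 6.05% in gCTRL (+1.76 ± 0.44, adjusted p = 0.011; not called without gHNRNPC replicate 3, +1.54, adjusted p = 0.065). The cold-inducible RNA-binding protein gene CIRBP, named after its values were seen, had 37.8, 34.7 and 34.1% in gHNRNPC libraries, against 11.4, 14.3 and 10.7% in gCTRL libraries (+1.996 ± 0.27, adjusted p = 6.7e-05), between ends 1635 bases apart. All gHNRNPC libraries had a larger distal share of CIRBP reads than any gCTRL library. Of 9 translation initiation factor genes 2 shifted proximally, EIF4A2 and EIF2S3; EIF2S3 had 61.2, 65.5 and 67.2% in gHNRNPC libraries, against 84.7, 84.98 and 87.8% in gCTRL libraries (−1.72 ± 0.43, adjusted p = 0.011). Of 8 ribosomal protein genes 2 shifted distally, among them RPL14 with 90.3, 94.6 and 93.2% in gHNRNPC libraries, against 70.1, 74.1 and 81.5% in gCTRL libraries (+2.06 ± 0.38, adjusted p = 0.00087). Of 12 mitosis genes 2 shifted distally, BIRC5 and CCNA2; CCNA2 lost its call without any 1 of the 6 libraries (+0.87 to +1.13, adjusted p = 0.072 to 0.17). Of 3 amino acid transporters 1 did, SLC38A2, with 92.5 ± 2.59% in gHNRNPC and 78.03 ± 4.69% in gCTRL (+1.75 ± 0.36, adjusted p = 0.0022). Of 2 interferon and double-stranded RNA sensing genes 1 shifted each way: the antiviral adaptor MAVS distally, with 38.4 ± 1.11% in gHNRNPC and 21.2 ± 3.35% in gCTRL (+1.22 ± 0.26, adjusted p = 0.0038), and the kinase gene EIF2AK2, which encodes PKR, proximally, with 75.9 ± 6.57% in gHNRNPC and 88.3 ± 2.52% in gCTRL (−1.24 ± 0.35, adjusted p = 0.022). EIF2AK2 was not called without gHNRNPC replicate 2, gCTRL replicate 1 or gCTRL replicate 2 (−0.96 to −1.18, adjusted p = 0.068 to 0.16). It turned to a distal shift with its outermost sites (+1.94, adjusted p = 0.042), and MAVS was then not called (+0.69, adjusted p = 0.13). In other lists DDIT4 (−1.21 ± 0.40, adjusted p = 0.047) and CDKN1B (−1.75 ± 0.51, adjusted p = 0.025) shifted proximally, and both lost their call without any 1 of 4 libraries, gHNRNPC replicate 3 and gCTRL replicates 1 and 3 among them (−0.99 to −1.14, adjusted p = 0.1 to 0.17 for DDIT4; −1.34 to −1.75, adjusted p = 0.076 to 0.12 for CDKN1B). Of 14 genes known for poly(A) site switching 1 was called, CCND1, which lost its call without any 1 library other than gHNRNPC replicate 1 (+0.85 to +1.10, adjusted p = 0.068 to 0.17), and of 6 cleavage and polyadenylation factors 0.

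Nuclear RNA of the same knockdown was compared to see which changes differ between fractions; the 2 comparisons share no library. In nuclei 827 genes were called higher (8.84%) and 555 lower (5.94%). Of the genes called higher in cytoplasm 489 were also higher in nuclei, 42.5% of the cytoplasmic and 59.1% of the nuclear list. Of those called lower 344 were also lower in nuclei, 29.6% of the cytoplasmic and 62.0% of the nuclear list. No gene was called in opposite directions. The test of the difference itself called 2 genes (0.0214%), with 984 at an unadjusted p under 0.05. FKBP9, an endoplasmic reticulum peptidyl-prolyl isomerase, had 95.5, 99.7 and 99.4 CPM in gHNRNPC libraries, against 27.7, 25.9 and 25.1 CPM in gCTRL libraries in cytoplasm (+1.90 ± 0.20), and a log2 change of +0.22 in nuclei, a difference of +1.68 ± 0.26 (adjusted p = 0.0066). EXOC3-AS1, an antisense RNA at the EXOC3 gene, had 47.2, 41.9 and 41.5 CPM in gHNRNPC libraries, against 137, 156 and 131 CPM in gCTRL libraries in cytoplasm (−1.70 ± 0.20) and a log2 change of −0.04 in nuclei, a difference of −1.66 ± 0.28 (adjusted p = 0.011). The cytoplasmic libraries of both genes were separate. All reads of both genes lie in entries with non-whole counts. How many of these reads are shared with other entries was not tested, so both values are uncertain. The count of such differences ranged from 0 (whole-number entries only) to 43 (DESeq2).

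**Figure D5:**
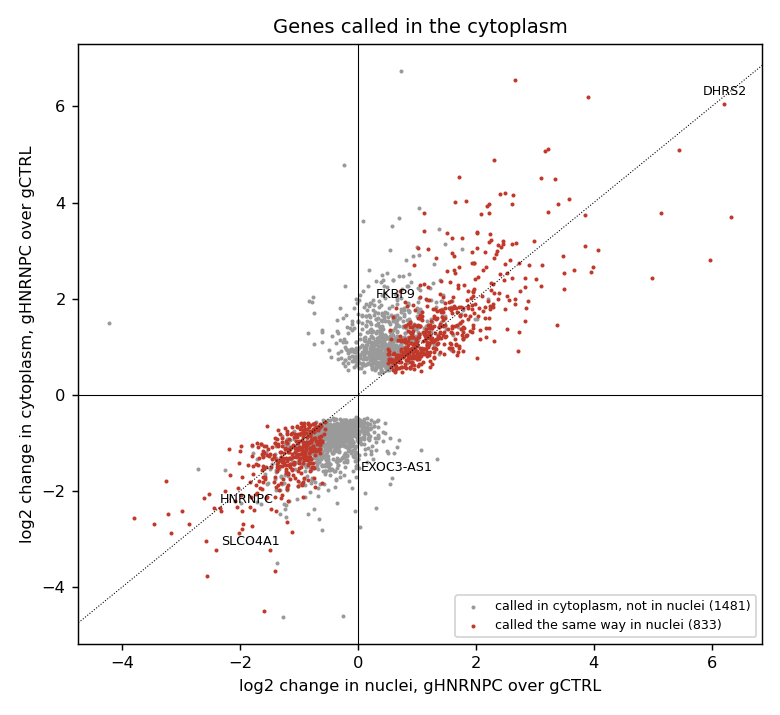
Log2 change of gHNRNPC over gCTRL in cytoplasm (vertical axis) against that in nuclei (horizontal axis) for the 2314 genes called in cytoplasm; red points were called in the same direction in nuclei (833) and grey points were not (1481), and the dotted line marks equal change. FKBP9 and EXOC3-AS1 lie near a nuclear change of 0.

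In nuclei 13 of the 19 integrated stress response genes were higher and 0 lower, and DDIT3 changed by +2.61, ATF4 by +1.30 and SESN2 by +1.96. Of the hypoxia and glycolysis list 2 were higher and 11 lower in nuclei, and NDRG1 changed by −1.98 and GPI by −1.71. Cytosolic ribosomal protein genes had a median of +0.63 in nuclei, where 32 of 59 were higher and 0 lower, against +0.08 in cytoplasm with 7 and 2; the difference was called for none of them. Site use was called in 40 genes in nuclei (4.45%), 26 toward the distal and 14 toward the proximal site. Of these 23 and 11 were also called in cytoplasm in the same direction, 85.0% of the nuclear and 26.8% of the cytoplasmic calls, and 0 in the opposite direction. The edgeR test of the difference in shift between fractions called 0 genes, with 62 at an unadjusted p under 0.05 and a smallest adjusted p of 0.40. For BIRC5 the shift in nuclei was +3.33 (adjusted p = 2.4e-05), and for NUP214 it was +1.72, which was not called (adjusted p = 0.068).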

How the data were processed

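The values are expected counts for each transcript end or position in the genome, which the authors made with Salmon 0.14.1 on hg38, per the submitters' processing notes; the deposited table of the knockdown holds 12 libraries. Salmon splits reads that match several sequences, and 98.6 to 98.7% of values were whole. Entries (94924) were assigned to genes through GENCODE 29 (GRCh38), 56493 transcripts in the same version; 0.971 to 1.2% of counts were left out. Entries were summed per gene, rounded and tested with edgeR 4.0.16 (R 4.3.3; quasi-likelihood, robust, TMM, filterByExpr), with all 12 libraries sharing the spread, and p-values were adjusted by Benjamini-Hochberg. Site use was tested as a site by group term on the 2 most used sites, where both averaged 10 counts or more. DESeq2 1.42.0, limma 3.58.1 and other settings were alternatives. The procedure was tested on simulated data.

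Depth was 1.83 to 2.25 M counts, and intervals and floors cover counting error only, since the reads carry no molecular identifiers used here. No library pair was a duplicate. The genes named are HNRNPC, the 15 largest called rises and falls, up to 6 members of each list in either direction by adjusted p, the 10 largest shifts either way, and the 5 most abundant genes without a call. ATF4, CEBPB, CHAC1, PGK1, PDK1, AURKB, U2AF1, CIRBP and OAZ2 were named after their values were seen. Some list members are not reported here. The libraries, lists and tests were chosen with earlier results of these data known, and leaving out both replicate 2 libraries was added after seeing the data.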

Additional observations from a re-analysis of the deposited data

Results flagged for a closer look

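Expression of 2 genes differed between cytoplasm and nuclei in how it changed with HNRNPC knockdown, by a test of the difference itself over 9351 genes (edgeR interaction term, Benjamini-Hochberg). FKBP9 changed by +1.90 in cytoplasm and +0.22 in nuclei on the log2 scale, a difference of 1.68 ± 0.26 (adjusted p = 0.0066), and all 3 cytoplasmic gHNRNPC libraries were above all 3 gCTRL libraries. EXOC3-AS1 changed by −1.70 in cytoplasm and −0.04 in nuclei, a difference of −1.66 ± 0.28 (adjusted p = 0.011), and all 3 cytoplasmic gHNRNPC libraries were below all 3 gCTRL libraries. The difference of EXOC3-AS1 was not called without gHNRNPC cytoplasm replicate 3 (−1.63, adjusted p = 0.074) or gCTRL nuclei replicate 2 (−1.70, adjusted p = 0.051). With the replicate block neither difference was called (FKBP9 1.69, adjusted p = 0.32; EXOC3-AS1 −1.67, adjusted p = 0.46). All reads of both genes lay in entries with non-whole counts, and neither could be fitted with whole-number entries alone.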

How the results depend on the processing

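All counts below are edgeR calls unless another tool is named. For expression in cytoplasm, 2314 genes were called (1151 higher, 1163 lower); leaving out 1 library gave 1599 to 2194 (671 to 1151 higher, 838 to 1043 lower), and leaving out replicate 2 of both groups 1293 (566 and 727). Correlations between libraries were taken on how each departed from its group, and not on whole profiles. Same-numbered libraries of the 2 groups had correlations of −0.44, −0.61 and −0.10. Those with different numbers ranged from −0.45 to +0.60. With 3 libraries in a group these values cannot settle whether the numbers pair the samples. With the replicate block 1418 genes were called (710 and 708). For the difference between cytoplasm and nuclei (2 genes, 1 and 1) the counts were 10 with library totals (9 and 1), 43 with DESeq2 (10 and 33), 36 without a filter (21 and 15), 1 with the replicate block (0 and 1), which was neither FKBP9 nor EXOC3-AS1, 4 with transcript entries (1 and 3), 0 with whole-number entries (0 and 0), and 1 to 14 without 1 library (1 to 6 and 0 to 8). For site use (127; 98 distal, 29 proximal) they were 42 with site means of at least 50 (39 and 3), 46 with the replicate block (32 and 14), 67 to 161 without 1 library (51 to 132 and 16 to 29) and 54 without both replicate 2 libraries (40 and 14). The difference in site use was called for 2 genes at site means of at least 50 (1 and 1) and 0 otherwise.

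With cytoplasm libraries alone, list medians less that of all genes moved to 0.27 for cholesterol genes, 0.74 for epithelial, 0.37 for immediate early, 0.50 for metastasis-linked and 0.017 for proteasome genes. Directions turned for RPS14 (+0.0097 with library totals; −0.26 to +0.049 over settings that leave out libraries, +0.049 without both replicate 2 libraries), MALAT1 (−0.056 to +0.51 without 1 library), BIRC5 expression (+1.92, transcript entries), EIF2AK2 site use (+1.94 with the outermost sites, +1.96 with whole-number entries) and SRSF10 site use (−0.074, whole-number entries). Of the other values of named genes, 3090 kept their direction and call for expression and 375 lost the call; for site use 535 and 119. U2AF1 gained a call in 4 settings. The cause was not tested. Depth limits genes with few reads, such as ERN1 and NR4A1.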
